A study of Mus musculus with 6 samples.

Results

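The 10 genes described here encode transcription and chromatin factors known for keeping blood stem cells self-renewing: Mecom, Hlf, Runx1, Erg, Etv6, Prdm16, Mllt3, Hmga2, Nkx2-3 and Fli1. The cells were LT-HSCs, the long-term stem cells of the marrow that can rebuild the blood over a lifetime, sorted by the gate Lin-Sca1+CD150+CD48-. Every probe set whose annotation names exactly one of these genes was kept, which gave 31 of the 45037 probe sets tested and 10 of 18193 genes. A probe set is a group of short probes on the array that together measure a transcript, and several probe sets can report on different parts or forms of the same gene.

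The dKO group consisted of 3 arrays from mice carrying the MxCre transgene and floxed alleles of both c-myc and N-myc, the genes named Myc and Mycn on the array. The Control group consisted of 3 arrays from mice with the floxed alleles and no MxCre. MxCre is driven by a promoter that answers to interferon in many cell types, not in stem cells alone. The mice were 8 weeks old, of mixed background, and all were given pI-pC, an RNA mimic that induces interferon, as 2 daily treatments ending 3 days before marrow was taken. Each dKO array used the pooled cells of 3 mice and each Control array those of 2 mice. The comparison asks how the self-renewal factors stand shortly after both Myc genes are deleted. One Control label writes the second floxed gene as M-Myc. It was read here as the same genotype, from its title.

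Stem cells are maintained by a network in which a few DNA-binding proteins hold each other's genes active. Runx1, Erg and Fli1 bind regulatory regions together with Gata2, Tal1, Lyl1 and Lmo2, while Mecom and Prdm16 are related zinc-finger proteins of the PRDM family and Etv6 is an ETS-family repressor. Hlf is a basic leucine zipper protein of the PAR family, Hmga2 bends and opens chromatin through AT-hooks, and Mllt3 reads acylated histones through a YEATS domain. Myc proteins drive growth and, in mouse stem cells, are known for balancing self-renewal against the exit to differentiation.

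Of the 31 probe sets, 4 were lower in dKO cells and 0 were higher by limma at an adjusted p of 0.05. The 4 were both probe sets of Hlf and 1 each of Hmga2 and Mllt3. Over the whole array 6.99% of probe sets passed in either direction, 3.41% lower and 3.57% higher. By the brightest probe set of each gene, 2 of 10 genes fell (Hlf and Mllt3) and 0 rose, where 8.05% of all genes passed, 3.56% lower and 4.49% higher. All dKO arrays lay below all Control arrays for 5 of the 10 genes and above for 2, against 14.2% and 15.8% of all genes, 30.0% in either direction. At an unadjusted p of 0.05, 11 member probe sets were lower and 5 higher, against 21.7% of all probe sets in either direction. In 12 member probe sets all dKO arrays lay below all Control arrays, and in 6 all lay above. The share with all dKO arrays below was 14.0% over the whole array, and with all above 13.4%, 27.4% in all. By brightest probe sets, 7 of the 10 genes had an unadjusted p under 0.05, against 23.1% of all genes. The median log2 difference, dKO minus Control, was -0.31 over the member probe sets and -0.01 over all probe sets. By brightest probe sets the medians were -0.18 for the 10 genes and 0.01 for all genes. With 1 array left out, between 1 (without Control replicate 1) and 3 member probe sets passed, and 2 passed without dKO replicate 1 or without Control replicate 3, where 2.97% to 3.72% of all probe sets passed in the same fits. By brightest probe sets 0 genes passed without Control replicate 1 or 3, 1 without dKO replicate 1 or 2 or Control replicate 2, and 2 without dKO replicate 3, where 3.52% to 4.42% of all genes passed.

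**Figure D1:**
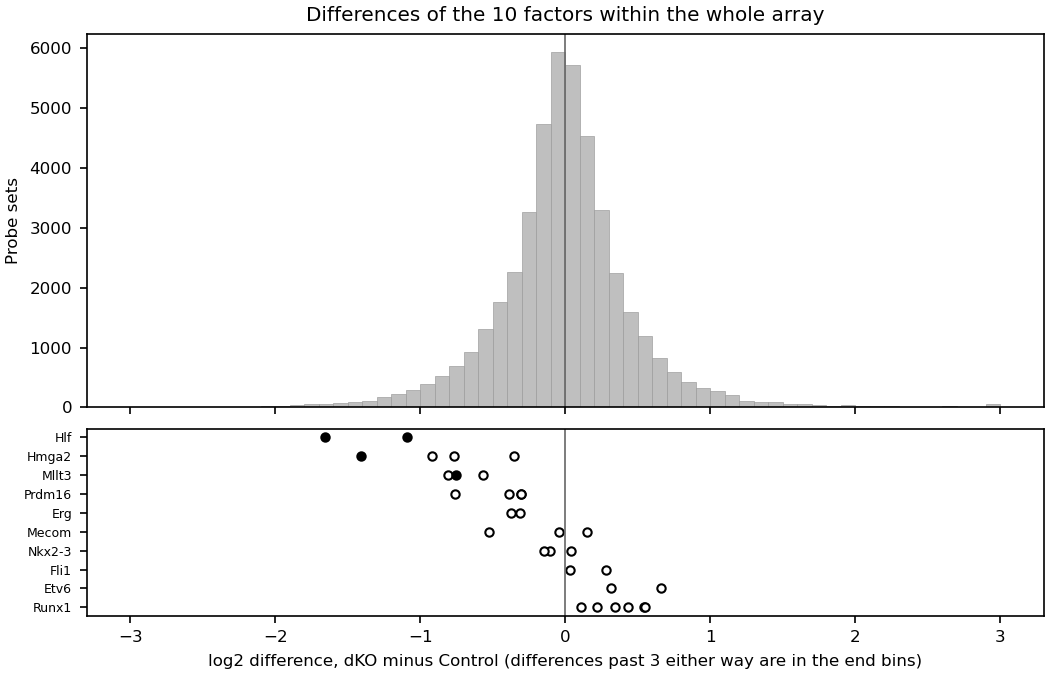
The upper panel counts all 45037 probe sets by their log2 difference, dKO minus Control, in bins on the x axis, and the lower panel places the 31 probe sets of the 10 factors on the same axis, one row per gene. Filled points passed limma's adjusted p of 0.05, and these 4 points, of Hlf, Hmga2 and Mllt3, lie left of 0.

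Genomic sequence upstream of these genes is shown for the 3 genes with a probe set that fell and for Runx1. The Runx1 window shown is the 1 member window with the letters CACGTG, the E-box that Myc binds together with Max. Windows of 250 bases before an annotated start came from RefSeq (build GRCm38.p6) for 9 of the 10 genes, 14 windows in all. Capitals mark matches, on either strand, to CACGTG, to CACGCG (a variant E-box), to GGGCGG (the GC box), to the ETS core GGAAGT, to the RUNX site TGTGGT or to TTACGTAA (a PAR bZIP site).
Hlf, chr11:90390918-90391167, strand minus: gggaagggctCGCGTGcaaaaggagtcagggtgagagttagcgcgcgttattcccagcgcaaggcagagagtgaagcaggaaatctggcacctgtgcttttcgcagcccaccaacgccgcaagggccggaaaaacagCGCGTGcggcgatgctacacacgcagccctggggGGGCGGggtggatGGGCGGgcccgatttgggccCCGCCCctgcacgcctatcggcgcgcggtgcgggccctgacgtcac
Hmga2, chr10:120476470-120476719, strand minus: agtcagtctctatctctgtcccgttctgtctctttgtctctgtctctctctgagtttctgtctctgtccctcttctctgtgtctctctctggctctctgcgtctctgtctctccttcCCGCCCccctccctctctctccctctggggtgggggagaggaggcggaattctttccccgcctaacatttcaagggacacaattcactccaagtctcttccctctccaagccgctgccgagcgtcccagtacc
Mllt3, chr4:88033408-88033657, strand minus: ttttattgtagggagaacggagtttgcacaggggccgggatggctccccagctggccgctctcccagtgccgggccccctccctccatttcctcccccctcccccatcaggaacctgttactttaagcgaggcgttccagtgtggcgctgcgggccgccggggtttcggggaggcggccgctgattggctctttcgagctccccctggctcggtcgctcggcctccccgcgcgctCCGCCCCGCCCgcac
Runx1, chr16:92826075-92826324, strand minus: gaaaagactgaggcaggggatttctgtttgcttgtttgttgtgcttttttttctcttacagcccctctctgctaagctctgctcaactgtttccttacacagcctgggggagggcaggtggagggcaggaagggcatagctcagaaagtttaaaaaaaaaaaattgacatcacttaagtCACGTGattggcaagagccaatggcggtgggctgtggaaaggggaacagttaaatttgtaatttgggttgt
CACGTG stood in 1 of the 14 windows, against 6.02% of 32851 RefSeq windows. CACGCG stood in 1, that of Hlf, which held it 2 times, against 7.62%. GGGCGG stood in 8 windows, against 32.7%. The ETS core was in 0 of the 14, against 19.7% of all windows, the RUNX site in 0, against 14.0%, and the PAR bZIP site in 0, against 0.113%. The GGGCGG matches of the Mllt3 window shown overlap each other, and no match of one motif overlapped another's. Runx1 and Mllt3 each had a further window, not shown, with 0 matches. The motifs were chosen with the member windows in view. A match of letters is no evidence of binding, and the letters missing from a window say nothing of the factor.

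Hlf had the largest fall of the 10 genes. Hlf is known for marking stem cells and limiting their entry into the cell cycle in mice. Probe set 1434736_at had log2 RMA values of 8.74, 9.58 and 9.81 in the dKO arrays, against 11.20, 10.85 and 11.05 in the Control arrays. Every dKO value lay more than 1 unit below every Control value, and dKO replicate 1 was the lowest. The mean was 9.38 ± 0.56 in dKO cells and 11.03 ± 0.17 in Control cells (SD, n = 3 arrays each), which is 3.16-fold lower in dKO (log2 difference -1.66 ± 0.28 SE, limma adjusted p = 0.0178). The other Hlf probe set, 1434735_at, had 7.84, 8.28 and 8.23 in the dKO arrays, against 9.25, 9.28 and 9.10 in the Control arrays. Again the groups were apart and dKO replicate 1 was lowest. The log2 difference was -1.09 ± 0.16 (SE), or 2.13-fold lower in dKO (limma adjusted p = 0.0122). Left-out arrays kept this call in all 6 cases, with an adjusted p of up to 0.0477. The call of 1434736_at was lost without Control replicate 1 (adjusted p = 0.0576) or Control replicate 3 (0.0584), with log2 differences of -1.34 to -1.87 over the left-out arrays.

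Hmga2 was the next by size of fall. It supports self-renewal in fetal and young stem cells of the mouse and is held down by let-7 microRNAs as cells age. Probe set 1450780_s_at had 6.10, 6.51 and 6.02 in the dKO arrays, against 7.65, 7.21 and 8.00 in the Control arrays. The groups did not overlap. The log2 difference was -1.41 ± 0.24 (SE), or 2.66-fold lower in dKO (limma adjusted p = 0.0177). The suffix _s_at marks probes that can match more than one transcript. Probe set 1422851_at had 6.17, 6.87 and 6.75 in the dKO arrays, against 7.93, 7.27 and 7.35 in the Control arrays, and differed by -0.92 (adjusted p = 0.0806). The brightest, 1450781_at, had 6.95, 7.55 and 6.93 in the dKO arrays, against 8.20, 7.61 and 7.93 in the Control arrays, and differed by -0.77 (adjusted p = 0.103). In these 2 probe sets as well all dKO arrays lay below all Control arrays, though neither passed the test with all probe sets fitted. Among probe sets of at least median level 1422851_at passed (adjusted p = 0.0423). The fourth, 1446196_at, had both group means, 3.55 in dKO and 3.90 in Control, within the values of the array's negative controls, 2.13 to 3.92, and no fold is given for it. The call of 1450780_s_at was lost without dKO replicate 1, dKO replicate 3 or Control replicate 1 (adjusted p = 0.0657, 0.0611 and 0.0554).

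Mllt3, a subunit of complexes that promote transcription elongation and histone methylation by Dot1l, is known for maintaining human stem cells in culture. Its brightest probe set, 1453622_s_at, had 10.39, 10.59 and 10.70 in the dKO arrays, against 11.29, 11.39 and 11.27 in the Control arrays. The Control arrays lay close together and above all dKO arrays. The mean was 10.56 ± 0.16 in dKO cells and 11.32 ± 0.07 in Control cells (SD, n = 3 arrays each), or 1.69-fold lower in dKO (log2 difference -0.76 ± 0.14 SE, limma adjusted p = 0.0236). Probe set 1431890_a_at differed by -0.57 (adjusted p = 0.102) and 1429205_at by -0.81 (adjusted p = 0.111). In all 3 Mllt3 probe sets the dKO arrays lay below the Control arrays, as in 14.0% of all probe sets. The call of 1453622_s_at was kept with dKO replicate 3 left out (adjusted p = 0.0494) and lost with any other array left out (up to 0.0778, without Control replicate 2), while the log2 difference stayed between -0.67 and -0.83.

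**Figure D2:**
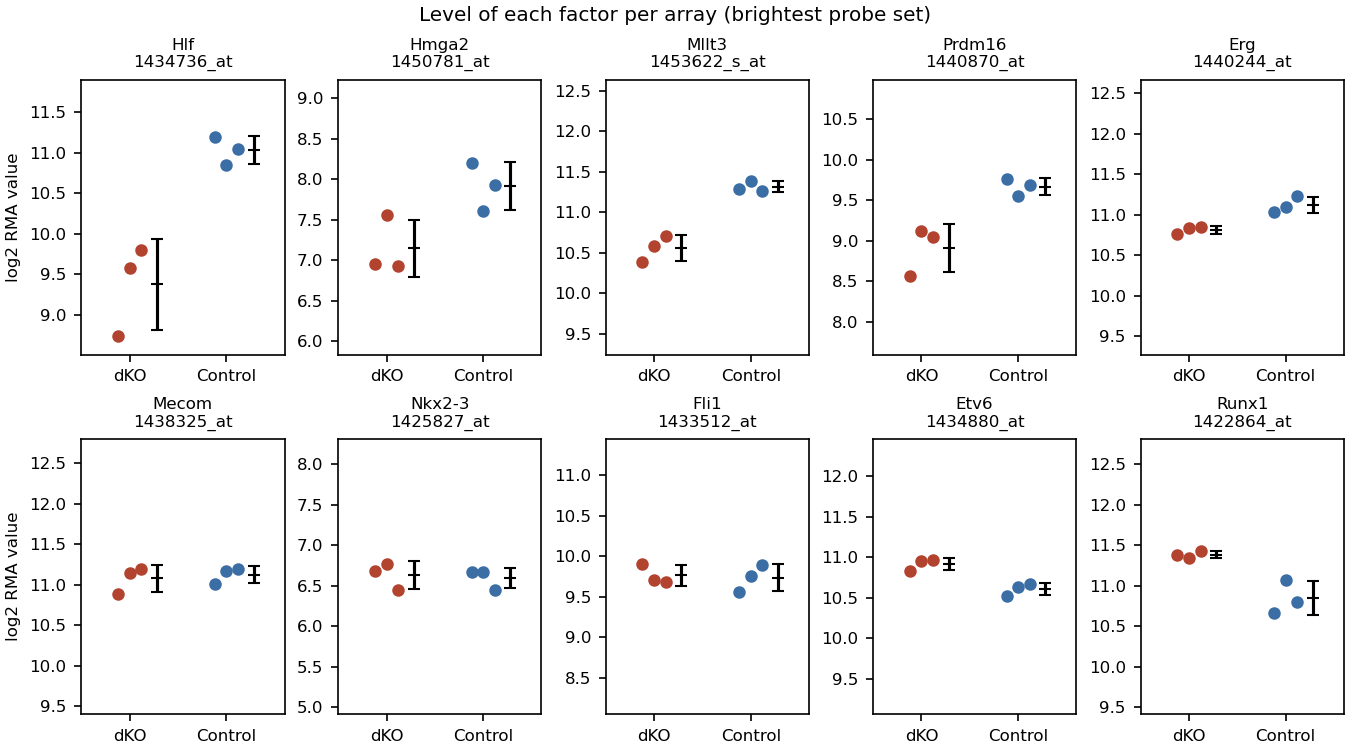
Each panel gives the log2 RMA values (y axis, each panel spanning the same number of units) of the brightest probe set of a gene in the 3 dKO arrays (left) and the 3 Control arrays (right). Bars show the mean and SD. The dKO points of Hlf, from 8.74 to 9.81, lie below its Control points, from 10.85 to 11.20, while the points of Mecom and Nkx2-3 overlap.

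Prdm16 and Mecom, the PRDM pair, did not pass in any probe set in the limma fit reported throughout. Prdm16 sustains stem cells in mice, in part by limiting oxidative stress. Its brightest probe set, 1440870_at, had 8.57, 9.12 and 9.04 in the dKO arrays, against 9.76, 9.55 and 9.68 in the Control arrays. The groups did not overlap, and dKO replicate 1 was lowest. The log2 difference was -0.76 ± 0.18 (SE, 95% interval -1.18 to -0.33, limma adjusted p = 0.054). It passed after quantile normalization, after either filter on low values and with a trended robust prior (adjusted p = 0.0261 to 0.0467). It did not pass after median centring (0.0738) or with array weights (0.0584), and had an adjusted p of 0.0791 to 0.139 with 1 array left out. The other 3 Prdm16 probe sets differed by -0.31, -0.31 and -0.39, with adjusted p from 0.303 to 0.483. Without Control replicate 1, 1429308_at differed by -0.10 and 1429309_at by -0.18. All 4 differences were thus negative, and 2 of the 4 had groups that did not overlap, as did 27.4% of all probe sets. The 4 probe sets read the same RNA pools and are not independent measurements.

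Mecom encodes the long and short zinc-finger proteins also known as Mds1-Evi1 and Evi1, which are required for long-term repopulation in mice. Its brightest probe set, 1438325_at, had 10.89, 11.15 and 11.20 in the dKO arrays, against 11.00, 11.17 and 11.19 in the Control arrays. The groups overlapped, with a log2 difference of -0.04 ± 0.15 (SE, 95% interval -0.39 to 0.30, limma adjusted p = 0.906). Centring each array on its median turned that difference to 0.02. A second probe set, 1422295_at, had 6.36, 6.55 and 6.46 in the dKO arrays, against 7.21, 6.99 and 6.75 in the Control arrays. There the groups were apart, and the log2 difference was -0.52 ± 0.16 (SE, adjusted p = 0.107). The sources used here do not say which Mecom transcripts each probe set reads. The third, 1423011_at, had a Control mean of 3.85, within the values of the negative controls (log2 difference 0.15, adjusted p = 0.841).

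The ETS factors went different ways, and none of their 6 probe sets passed in the limma fit reported throughout. Erg, needed for stem cell maintenance in mice, had log2 differences of -0.31 (1440244_at, 95% interval -0.61 to -0.01, limma adjusted p = 0.219) and -0.38 (1425370_a_at, adjusted p = 0.401). The second was -0.17 without dKO replicate 1 and -0.23 without Control replicate 3. Probe set 1440244_at had 10.76, 10.84 and 10.84 in the dKO arrays, against 11.04, 11.10 and 11.24 in the Control arrays. The groups did not overlap there, and did in the other Erg probe set. Probe set 1440244_at had an adjusted p of 0.0455 with a trended robust prior. Etv6, required for stem cells to persist in adult mouse marrow, had positive differences in both probe sets. Probe set 1423401_at had 9.70, 9.97 and 9.92 in the dKO arrays, against 9.51, 9.25 and 8.84 in the Control arrays. Probe set 1434880_at had 10.83, 10.96 and 10.97 in the dKO arrays, against 10.52, 10.63 and 10.67 in the Control arrays. All dKO values exceeded all Control values in both. The log2 differences were 0.66 ± 0.20 (SE, limma adjusted p = 0.1) and 0.31 ± 0.13 (adjusted p = 0.211), and with a trended robust prior the second had an adjusted p of 0.0473. The mean over both Etv6 probe sets differed by 0.49 ± 0.13 (SE, limma adjusted p = 0.0474), so its call rests on how probe sets are combined. Fli1, the close relative of Erg, had 9.73, 9.83 and 9.70 in the dKO arrays, against 9.56, 9.36 and 9.50 in the Control arrays, by probe set 1422024_at. The groups were apart by a small margin (log2 difference 0.28, limma adjusted p = 0.271). Its brighter probe set, 1433512_at, overlapped between groups (0.03, 95% interval -0.32 to 0.38, adjusted p = 0.937), and the difference was -0.05 after quantile normalization.

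Runx1, needed for stem cells to arise in the embryo and for balanced blood formation in the adult mouse, had positive differences in all 6 of its probe sets, from 0.11 to 0.55. None passed in the limma fit reported throughout, the adjusted p running from 0.084 to 0.724. The brightest, 1422864_at, had 11.38, 11.34 and 11.43 in the dKO arrays, against 10.66, 11.07 and 10.80 in the Control arrays. The dKO arrays lay within 0.1 of each other and above all Control arrays. The log2 difference was 0.54 ± 0.15 (SE, 95% interval 0.19 to 0.89), or 1.45-fold higher in dKO (limma adjusted p = 0.084). It passed with a trended robust prior (adjusted p = 0.0183) and among probe sets of at least median level (0.0442), where 1452530_a_at passed too (0.0492). In 1422865_at and 1452530_a_at the dKO arrays again lay above the Control arrays, and in the other 3 the groups overlapped. The probe sets of 1 gene read the same RNA pools, so the 6 values are not 6 independent measurements.

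Nkx2-3 is a homeodomain protein best known for spleen and gut development in mice. Probe set 1425827_at had 6.68, 6.77 and 6.45 in the dKO arrays, against 6.67, 6.67 and 6.45 in the Control arrays. The groups overlapped in all 3 Nkx2-3 probe sets, with log2 differences of 0.04, -0.10 and -0.15 and adjusted p of 0.65 to 0.921. The 95% interval of the brightest ran from -0.31 to 0.39.

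**Figure D3:**
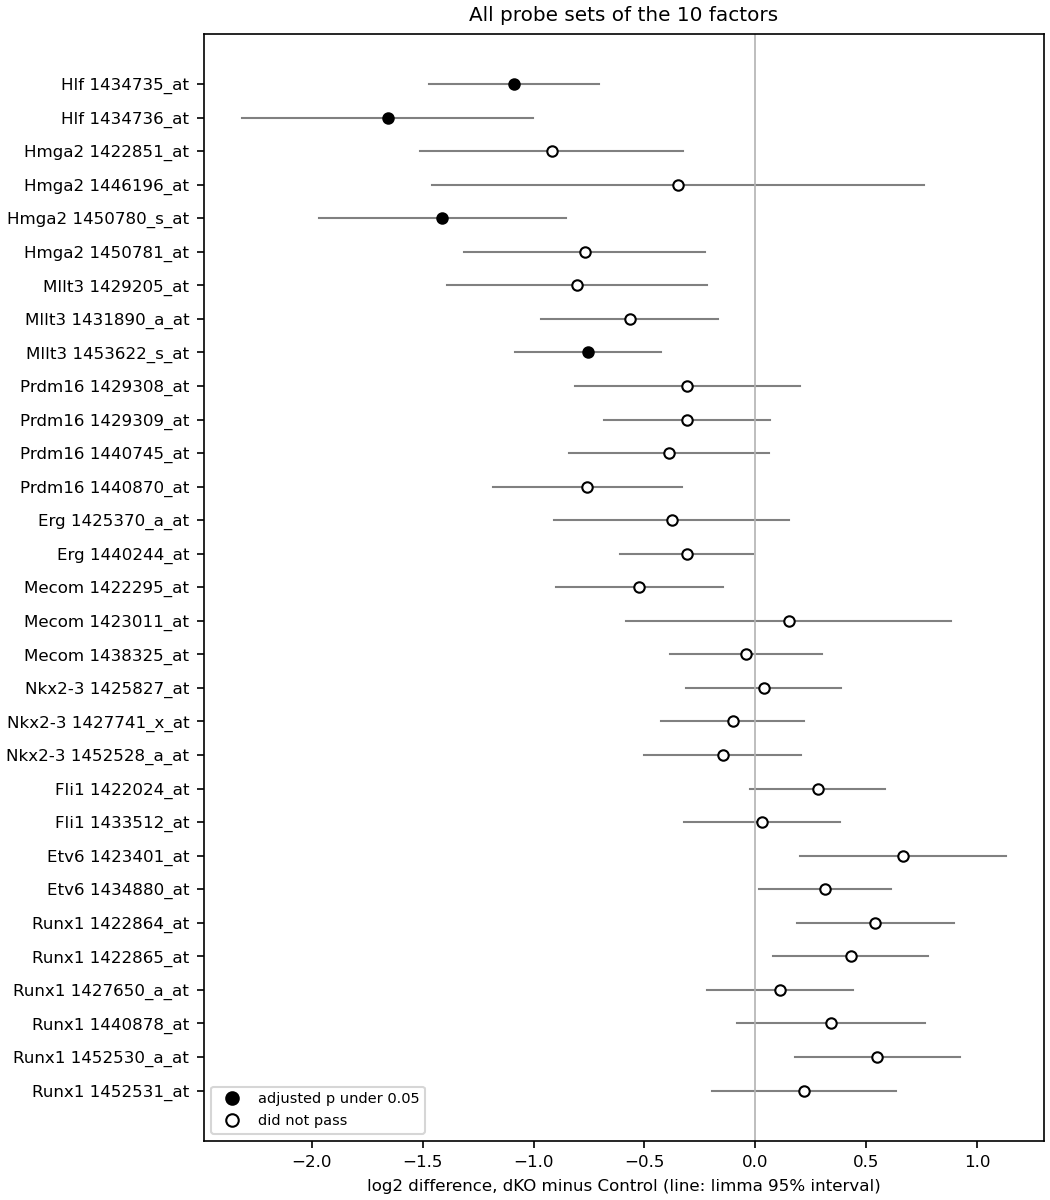
Points give the log2 difference, dKO minus Control, of all 31 probe sets (x axis), with lines for limma's 95% intervals. Genes run down the page from Hlf, at -1.09 and -1.66, to Runx1, whose 6 differences lie between 0.11 and 0.55. Filled points passed an adjusted p of 0.05.

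Among the dKO arrays, replicate 1 was lowest at 17 of the 31 probe sets, replicate 2 at 3 and replicate 3 at 11. Among the Control arrays the lowest was replicate 1 at 8, replicate 2 at 13 and replicate 3 at 10.

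**Figure D4:**
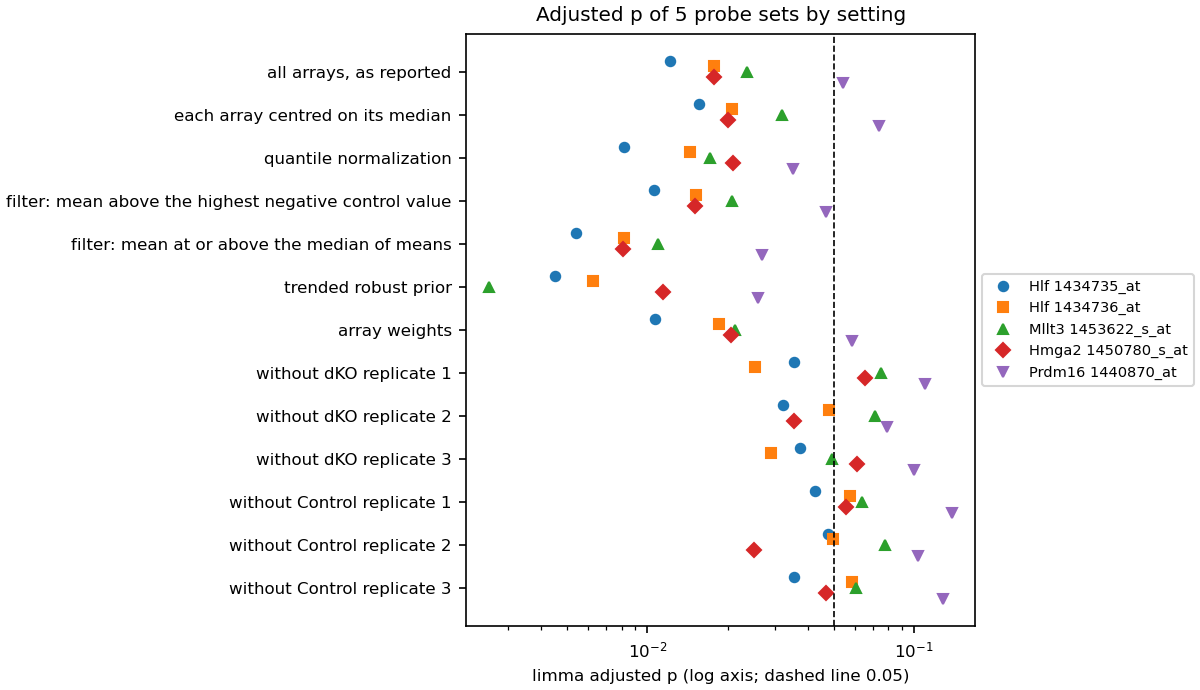
The x axis is limma's adjusted p on a log scale for the 4 probe sets that fell and for Prdm16 1440870_at, by setting (rows), with a dashed line at 0.05. Hlf 1434735_at stays left of the line in every row shown, Mllt3 1453622_s_at crosses it when most single arrays are left out, and Prdm16 lies on either side.

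The partners that bind DNA with Runx1, Erg and Fli1 showed 1 fall and 1 rise among 8 genes. Over all genes 3.56% fell and 4.49% rose. Ldb1, which bridges Lmo2 complexes, had 8.86, 8.93 and 8.92 in the dKO arrays, against 9.89, 9.63 and 9.72 in the Control arrays, and fell (log2 difference -0.85 ± 0.13 SE, limma adjusted p = 0.0142). That call was lost without dKO replicate 1 (0.0544). Gata2, a zinc-finger factor of stem cells and early progenitors, rose by 0.63 ± 0.13 (adjusted p = 0.0363), a call lost with any 1 array left out (up to 0.111). Its second probe set differed by 0.51 (adjusted p = 0.0821). Hhex, a homeodomain repressor, differed by -0.37 (adjusted p = 0.211), and Cbfb, the partner subunit of Runx1, by 0.07 (adjusted p = 0.811). The list median was 0.05, against 0.01 over all genes.

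Of 15 measured relatives of the 10 factors, 3 rose and 0 fell (median 0.16), where 4.49% of all genes rose and 3.56% fell. Runx3, the RUNX paralog known for T and NK cell development, rose by 0.96 ± 0.17 (SE, log2, limma adjusted p = 0.0193), although a second Runx3 probe set differed by -0.06 (adjusted p = 0.87). The ETS factor Etv5 rose by 1.09 ± 0.20 (adjusted p = 0.0222). Nfil3, a basic leucine zipper repressor that binds the same DNA sites as Hlf, had 7.83, 8.44 and 7.68 in the dKO arrays, against 6.84, 6.63 and 6.04 in the Control arrays, and rose by 1.48 ± 0.27 (adjusted p = 0.0238). Tef and Dbp, the other PAR proteins of the Hlf family, differed by -0.39 and -0.76 and did not pass (adjusted p = 0.224 and 0.662). Runx3 and Nfil3 lost their calls without dKO replicate 1 or 2 or Control replicate 2 or 3, and Etv5 without any 1 dKO array, with adjusted p up to 0.0743.

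Among 27 other regulators of stem cell maintenance, 6 fell and 2 rose (median -0.15). Myc and Mycn are in that list and are the deleted genes. Without them 4 of 25 fell and 2 rose (median -0.13), where 3.56% of all genes fell and 4.49% rose. The zinc-finger factor Egr1, known for restraining stem cell proliferation, had 11.60, 10.84 and 11.03 in the dKO arrays, against 9.33, 9.47 and 9.76 in the Control arrays, and rose by 1.63 ± 0.23 (SE, log2, limma adjusted p = 0.00996), a call kept with any 1 array left out. Cited2, a co-activator needed by adult mouse stem cells, rose by 0.86 ± 0.15 (adjusted p = 0.0194). The 4 that fell were Hoxb5 (-1.10, adjusted p = 0.0416), a homeobox gene that marks long-term stem cells in mice, Tcf15 (-0.76, 0.0446), Foxo3 (-0.71, 0.0211), a forkhead factor of quiescence, and Ikzf2 (-0.55, 0.0474). By these probe sets the 4 had all dKO arrays below all Control arrays, while 2 further Ikzf2 probe sets did not pass (-0.26, groups overlapping, adjusted p = 0.506, and -0.56, 0.0718). Tcf15, Foxo3 and Ikzf2 lost their calls with any 1 array left out, Hoxb5 without any but dKO replicate 3, and Cited2 without any but Control replicate 3 (adjusted p up to 0.134). Meis1, a homeobox partner of Hox proteins, differed by -0.10 (adjusted p = 0.796).

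Genes that control the factors or work with them were also listed. Of 6 Lin28 and Hmga2 axis genes and of 13 genes listed with Mllt3 (elongation and Dot1l complexes, Kmt2a and Men1), 0 passed limma's test. Over all genes 8.05% passed. The list medians were -0.06 and 0.01. At an unadjusted p of 0.05 the counts were 0 and 4, against 23.1% of all genes. Igf2bp3, an RNA-binding protein, differed by -0.33, Igf2bp1 by -0.13, and Lin28b had values of 1.84 to 1.97 in the dKO arrays and 1.97 to 2.02 in the Control arrays, all at or below the lowest negative control value. The elongation factor Ell2 differed by 1.17 (adjusted p = 0.0601), the histone methyltransferase Kmt2a by -0.59 (0.0702) and Mllt10 by -0.50 (0.174). Of 9 co-repressors used by Mecom, Prdm16, Etv6 or Runx1, 1 rose and 0 fell (median 0.11), where 4.49% of all genes rose and 3.56% fell. The 1 that rose was the deacetylase Hdac1, with 9.82, 9.88 and 9.73 in the dKO arrays, against 8.89, 8.84 and 8.87 in the Control arrays (log2 difference 0.95 ± 0.12 SE, limma adjusted p = 0.00802), a call kept with any 1 array left out. Ehmt2 differed by -0.67 (adjusted p = 0.111) and Hdac3 by 0.35 (0.402).

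**Figure D5:**
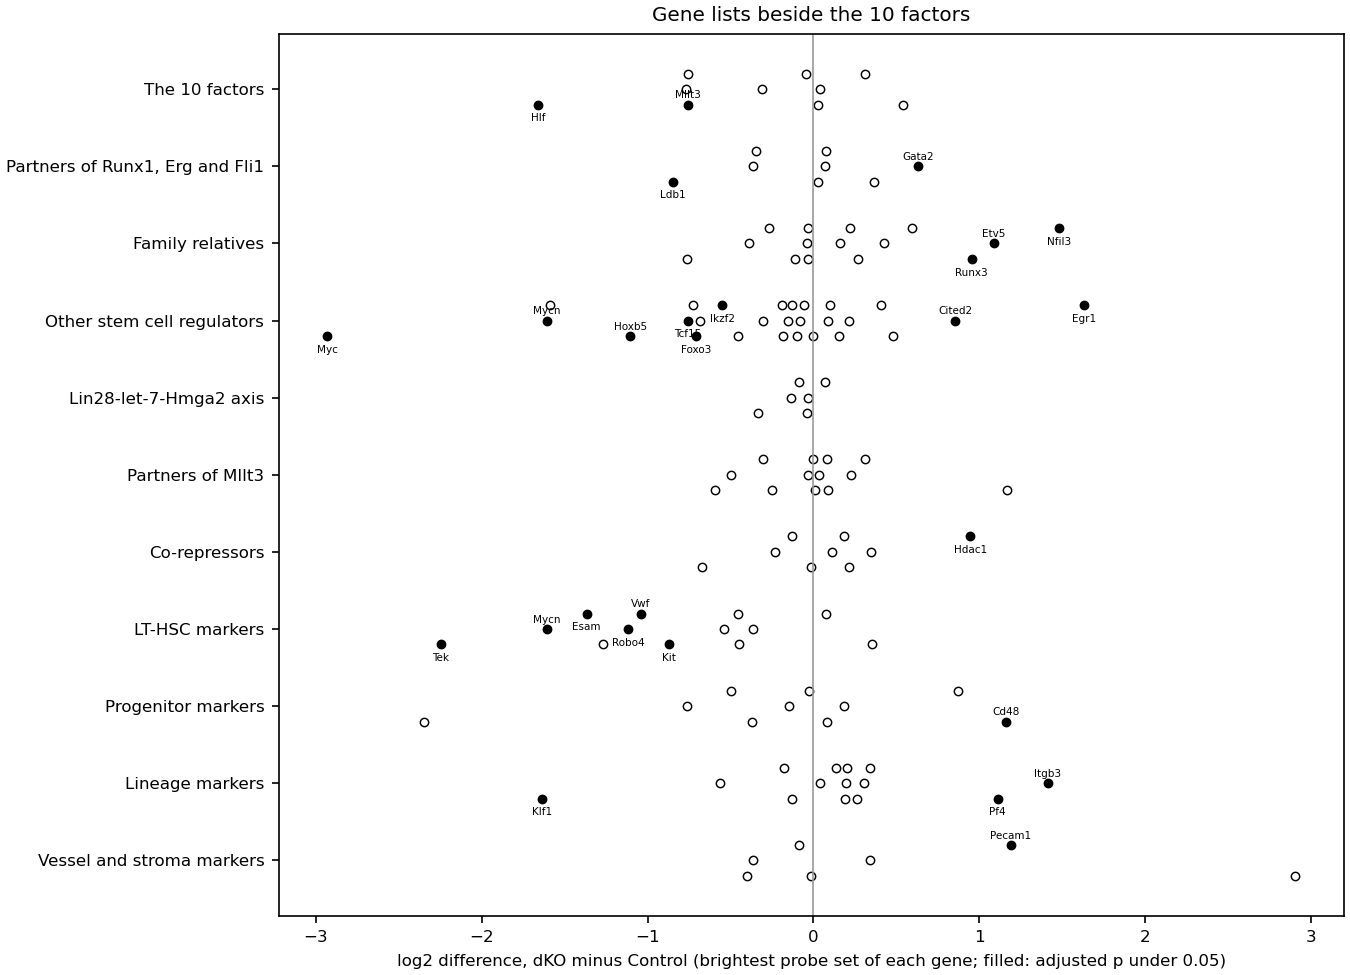
Each point is a gene, placed by the log2 difference, dKO minus Control, of its brightest probe set (x axis), with a row for the 10 factors and for each gene list. Filled, named points passed an adjusted p of 0.05. LT-HSC markers lie mostly left of 0, with Tek at -2.25.

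Some markers of the sorted cells differed too. Of 13 LT-HSC markers, 6 were lower in dKO cells and 0 higher (median -0.87), and without Mycn 5 of 12 were lower (median -0.71). Over all genes 3.56% were lower and 4.49% higher. Of the 13 differences 11 were negative and 2 positive. Tek, the angiopoietin receptor Tie2, had 6.28, 6.72 and 6.86 in the dKO arrays, against 8.78, 8.92 and 8.91 in the Control arrays (log2 difference -2.25 ± 0.18 SE, limma adjusted p = 0.0022). Esam, an adhesion molecule of stem cells, fell by 1.37 ± 0.18, Kit, the stem cell factor receptor, by 0.87 ± 0.12, Robo4 by 1.12 and Vwf by 1.04. Tek, Esam and Kit kept their calls with any 1 array left out, Robo4 lost its call without any but dKO replicate 2 (adjusted p up to 0.103), and Vwf without dKO replicate 1 or 3 or Control replicate 2 (up to 0.0585). As with the Hlf probe sets, dKO replicate 1 had the lowest Tek and Esam values. The lowest Kit, Robo4 and Vwf values were those of dKO replicate 3. For Mycn the lowest was dKO replicate 2 by its brightest probe set, 1425922_a_at. By Mycn 1417155_at, with 3.40, 3.81 and 3.17 in the dKO arrays, it was dKO replicate 3. The mean log2 level of the 13 markers was 7.98 to 8.16 in the dKO arrays and 8.89 to 8.95 in the Control arrays. That mean includes Mycn, a deleted gene, and the level without it was not taken. Slamf1, which encodes the CD150 of the gate, differed by 0.05 to 0.08 in its 3 probe sets, with adjusted p of 0.855 to 0.897. Angpt1 differed by 0.35, with all dKO arrays above all Control arrays (limma adjusted p = 0.171). Procr differed by -0.36 (adjusted p = 0.421) and Cdkn1c by -0.45 (0.319), and in both the groups overlapped.

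Cd48, whose protein the gate excludes, had 9.55, 9.66 and 9.03 in the dKO arrays, against 8.34, 8.01 and 8.39 in the Control arrays, and rose by 1.16 ± 0.21 (SE, log2, limma adjusted p = 0.0214). It was the 1 of 10 progenitor markers to pass, where 8.05% of all genes passed. The Cd48 call was lost without dKO replicate 1 or 2 or any 1 Control array (adjusted p up to 0.0765). The mean log2 level of the 10 markers was 6.19 to 6.91 in the dKO arrays and 6.36 to 7.02 in the Control arrays. Mpo, a granule enzyme of myeloid progenitors, had 5.74, 9.04 and 5.56 in the dKO arrays, against 8.23, 10.58 and 8.58 in the Control arrays, so replicate 2 was the highest in each group (difference -2.35, adjusted p = 0.236). Dntt, of lymphoid progenitors, differed by -0.49 (adjusted p = 0.152). Of 14 lineage markers 2 rose, the megakaryocyte genes Itgb3 (1.41 ± 0.25 SE, log2, adjusted p = 0.0207) and Pf4 (1.11 ± 0.20, 0.023), and the erythroid factor Klf1 fell by 1.64 ± 0.26 (0.015). Gp9, a platelet gene of the list, differed by 0.20 (adjusted p = 0.456) and Epor, an erythroid gene, by -0.56 (0.434). Over all genes 4.49% rose and 3.56% fell. The mean level of the 14 lineage markers was 6.35 to 6.60 in the dKO arrays and 6.29 to 6.38 in the Control arrays. Of them 1, Ncr1, was as dim as the negative controls in both groups. Klf1 kept its call with any 1 array left out, Itgb3 lost it without any 1 dKO array or Control replicate 3 (adjusted p up to 0.0728), and Pf4 without any but dKO replicate 2 (up to 0.0732). Of 7 vessel and stroma markers 1 rose, Pecam1 (1.19 ± 0.19, adjusted p = 0.0156), which stem cells express too, a call lost without dKO replicate 1 or 3 (up to 0.0554). Col1a1 had 8.33, 8.20 and 11.03 in the dKO arrays, against 5.86, 6.71 and 6.26 in the Control arrays (adjusted p = 0.0603), and Emcn differed by -0.40 (0.204). The mean level of the 7 was 6.59 to 6.79 in the dKO arrays and 6.02 to 6.22 in the Control arrays, while 4 of the 7 differences were negative and their median was -0.01. The part of these markers in the differences of the factors was not tested, and in bulk RNA fewer cells of a type and less RNA per cell cannot be told apart.

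The deleted genes were lower in the libraries labelled dKO. Myc fell by 2.93 ± 0.20 (SE, log2, limma adjusted p = 0.00137), from a mean of 10.36 in Control to 7.43 in dKO. The Mycn probe sets 1417155_at (10.81 in Control, 3.46 in dKO) and 1425922_a_at (8.94 and 7.33) passed as well. Probe set 1425923_at differed by -0.08 (adjusted p = 0.858) and was dim in both groups (4.40 and 4.32). The dKO means of Myc and of 1425922_a_at stayed above the array medians. Array medians were 5.90 to 5.92 in the dKO arrays and 5.96 to 5.97 in the Control arrays. The 3' minus 5' difference of the Gapdh control probes, a sign of RNA integrity, was 2.39 to 2.47 in the dKO arrays and 2.12 to 2.36 in the Control arrays, and that of actin was 0.20 to 0.21 in the dKO arrays and 0.10 to 0.23 in the Control arrays. Control replicate 2 had the lowest mean of the spiked poly-A controls, 10.47, where the other Control arrays had 11.94 and 11.99 and the dKO arrays 11.21 to 11.33. The part of RNA integrity in these differences was not tested.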

How the data were processed

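RNA of each pool was extracted with Trizol, amplified in 2 rounds and labelled with biotin, per the labels' protocols, and such amplification can distort differences between transcripts. For each probe set and array the authors deposited 1 RMA value. RMA is named in the submitters' processing notes; how it was run is not stated in the sources used here. That the deposited values are log2 was read from their range. RMA scales arrays to each other, so changes are relative. Groups came from sample titles.

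Probe sets were named through the platform's annotation table (34945 with 1 symbol, 932 with several, 9160 with none); 64 array controls were left out. Each probe set was fitted as dKO minus Control without covariates in limma 3.58.1 under R 4.3.3, and p was adjusted by Benjamini-Hochberg over 45037 probe sets. The brightest probe set of a gene has the highest mean over all 6 arrays. Intervals are limma's. The precision is limited by having 3 arrays a group. Separate pools make p measure the spread between pools. Named were all members, Myc, Mycn and, of each list, the 3 smallest p. Other list genes were named after their values were seen. The members and lists were chosen with earlier results of these data known. Listed genes without a probe set of 1 gene are not analysed here. Alternatives were other scalings, filters, a trended prior, array weights, a replicate block and left-out arrays.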

Additional observations from a re-analysis of the deposited data

How the results depend on the processing

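With median centring, quantile normalization, the filter at the highest negative control value and array weights, the counts of member probe sets (4 or 5), member genes (2 or 3) and all probe sets (3030 to 3398) stayed within 1.5 times those reported, though median centring gave 1273 lower and 1905 higher of all probe sets, against 1538 and 1608. Among probe sets of at least median level, 8 of 28 member probe sets (6 lower, 2 higher) and 4 member genes passed. Of all 22519 probe sets at that level 3977 passed. With a trended robust prior 8 member probe sets (6 lower, 2 higher) and 6 member genes passed, and 4053 of all 45037 probe sets. Same-numbered arrays did not deviate together from their group means (correlations of -0.02, 0.00 and 0.01, and 0 of 6 arrays closest to their own number). With replicate number as a block, 1 member probe set (Hlf 1434735_at), 0 member genes and 1530 of all probe sets passed. Hlf 1434736_at, Hmga2 1450780_s_at and Mllt3 1453622_s_at then had adjusted p of 0.0501, 0.0624 and 0.0706, and Prdm16 1440870_at 0.118. Of the progenitor markers, Cd48 no longer passed in that fit (0.0659) and 1 other was lower. With 1 array left out, 1 to 3 member probe sets, 0 to 2 member genes and 1338 to 1674 of all probe sets passed; such fits have fewer arrays. By gene means over probe sets 3 genes passed (Hlf and Mllt3 lower, Etv6 higher), and by the probe set of largest SD 2 (Hlf and Hmga2, both lower). Of 399 values of single probe sets under alternatives, 366 kept their direction and side of the threshold, 13 lost a call, 10 gained one and 10 changed sign, the last all of differences that did not pass. Only the 4 called probe sets could lose a call. Over 13 alternatives each, Hlf 1434736_at lost it in 3, Hmga2 1450780_s_at in 4, Mllt3 1453622_s_at in 6 and Hlf 1434735_at in 0. Mecom 1438325_at was 0.0179 after median centring and -0.103 to 0.0511 with 1 array left out, and Fli1 1433512_at -0.049 after quantile normalization and -0.059 to 0.109 with 1 array left out. With 1 array left out Mecom 1423011_at ranged from -0.20 to 0.36, Hmga2 1446196_at from -0.81 to 0.19 and Nkx2-3 1425827_at from -0.0353 to 0.13. The cause of these changes was not tested. Mecom 1423011_at, Hmga2 1446196_at and Nkx2-3 1427741_x_at dropped out under 1 or both filters and have no value there. Differences of dim probe sets are compressed by background signal.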
